A study of Mus musculus with 6 samples.

Results

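Myostatin, the activins and the proteins that bind, sense and relay them were followed in the quadriceps of AR97Q mice, a transgenic model of spinal and bulbar muscular atrophy that carries human androgen receptor with an expanded CAG repeat. The genes were the ligands Mstn, Gdf11 and Inhba, the secreted antagonists Fst and Fstl3, the type II receptors Acvr2a and Acvr2b, and the intracellular transducers Smad2, Smad3 and Smad7. They were found as the array probes, other than controls, whose transcript accession carries one of these symbols in a mouse gene annotation. All 10 had a probe, 16 probes in all, and 9 of the 10 were among the 25005 genes and transcripts that were tested.

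The 6 mice were males of 9 weeks, kept on a C57BL/6J background, and every mouse carried the transgene. The exercise group (n = 3) had been made to run in a wheel from 5 weeks of age, in daily bouts of 60 min at 5 m/min, 5 times a week for 4 weeks, and was sampled the day after the last run. The sedentary group (n = 3) had no running regimen. No wild-type mice are in the arrays, so each difference below is one between exercised and sedentary AR97Q mice. The question that the comparison addresses is how forced running changed the RNA of these genes in a muscle with polyglutamine disease.

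Myostatin and the activins are secreted growth factors of the TGF-beta family. They bind a type II receptor (ActRIIA or ActRIIB), which recruits a type I receptor, and the complex phosphorylates Smad2 and Smad3, which enter the nucleus with Smad4. In skeletal muscle this pathway is best known for limiting fibre size, since loss of myostatin enlarges muscle, and follistatin and its relative FSTL3 hold the ligands away from their receptors. Smad7 is an inhibitory SMAD that is itself induced by the pathway.

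Mstn and Fstl3 were the members that passed the test, in opposite directions, so the 250 bases before their annotated start are shown (RefSeq, GRCm38.p6, plus strand, 5′ to 3′). The windows are chr1:53061390-53061639 for Mstn and chr10:79777024-79777273 for Fstl3. Capitals mark each CANNTG, the E-box read by basic helix-loop-helix factors such as the myogenic regulators.
Mstn: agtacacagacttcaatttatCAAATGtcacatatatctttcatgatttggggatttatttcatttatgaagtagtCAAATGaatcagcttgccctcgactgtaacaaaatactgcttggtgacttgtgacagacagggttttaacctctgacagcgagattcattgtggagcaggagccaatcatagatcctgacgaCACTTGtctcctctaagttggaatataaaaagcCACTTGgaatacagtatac
Fstl3: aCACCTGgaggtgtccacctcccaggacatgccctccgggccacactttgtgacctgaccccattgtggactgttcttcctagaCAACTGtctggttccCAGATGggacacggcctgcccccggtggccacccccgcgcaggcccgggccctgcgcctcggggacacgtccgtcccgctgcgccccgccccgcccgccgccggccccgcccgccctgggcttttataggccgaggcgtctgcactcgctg
The Mstn window held 4 E-boxes and the Fstl3 window 3. Of the 32851 windows of the same length in the table, 66.2% held at least 1 E-box. The core SMAD-binding letters, CAGAC or GTCTG, matched 2 times in each window, against at least 1 match in 42.2% of all windows. TATAAA or TTTATA matched 1 time in each and is in 12.4% of all windows. CCAAT or ATTGG matched 1 time for Mstn and 0 times for Fstl3, and 33.8% of all windows held it. The table listed windows for 7 of the 10 members. Among the other 5 of these, Gdf11 held 1 E-box and Inhba, Acvr2a, Acvr2b and Smad3 held 0. Such matches describe the letters of a window and show no binding.

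Signals are given as log2 of the processed signal of a probe minus the 75th percentile of its array, called the scaled log2 signal here. A value of 0 is the 75th percentile, and values of different probes cannot be ranked against each other, because probes differ in how brightly they bind. A gene was called where limma's adjusted p was under 0.05. Of all genes and transcripts tested, 17.6% were called, 11.5% higher and 6.15% lower in exercise, so a call was not rare in these arrays. The 3 exercise arrays and sedentary array 1 lay in one strip of the slide, and sedentary arrays 2 and 3 lay in the next strip. The difference within a strip therefore sets the 3 exercise arrays against sedentary array 1 alone, and it is given for the members and the named pathway genes. Before scaling, the 75th percentile of the processed signal over probes was 251 to 257 on the exercise arrays and 310 to 384 on the sedentary arrays, so every fold change below rests on the scaling. The deposited value table and unscaled signals moved the median of all genes to -0.13 and -0.45, against 0.03 here. The fit without sedentary array 1 called 3468 higher and 2063 lower, but leaving out any other single array left at most 1 gene called by limma over the whole array set, with 6680 to 8146 genes at an unadjusted p under 0.05.

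Of the 9 members tested, 2 were called, or 22.2% against the 17.6% of all genes. One of them, Mstn, was higher in exercise and the other, Fstl3, was lower. The arrays of the groups did not overlap for 4 members, 3 higher and 1 lower. Of all genes tested 43.2% did not overlap, 25.0% higher and 18.2% lower in exercise. The median log2 fold change of the 9 was 0.06, beside 0.03 for all genes tested. The members without overlap were Mstn, Fstl3, Acvr2b and Smad3. The counts called and not overlapping lay near the shares of all genes, and a difference from them was not tested.

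**Figure D1:**
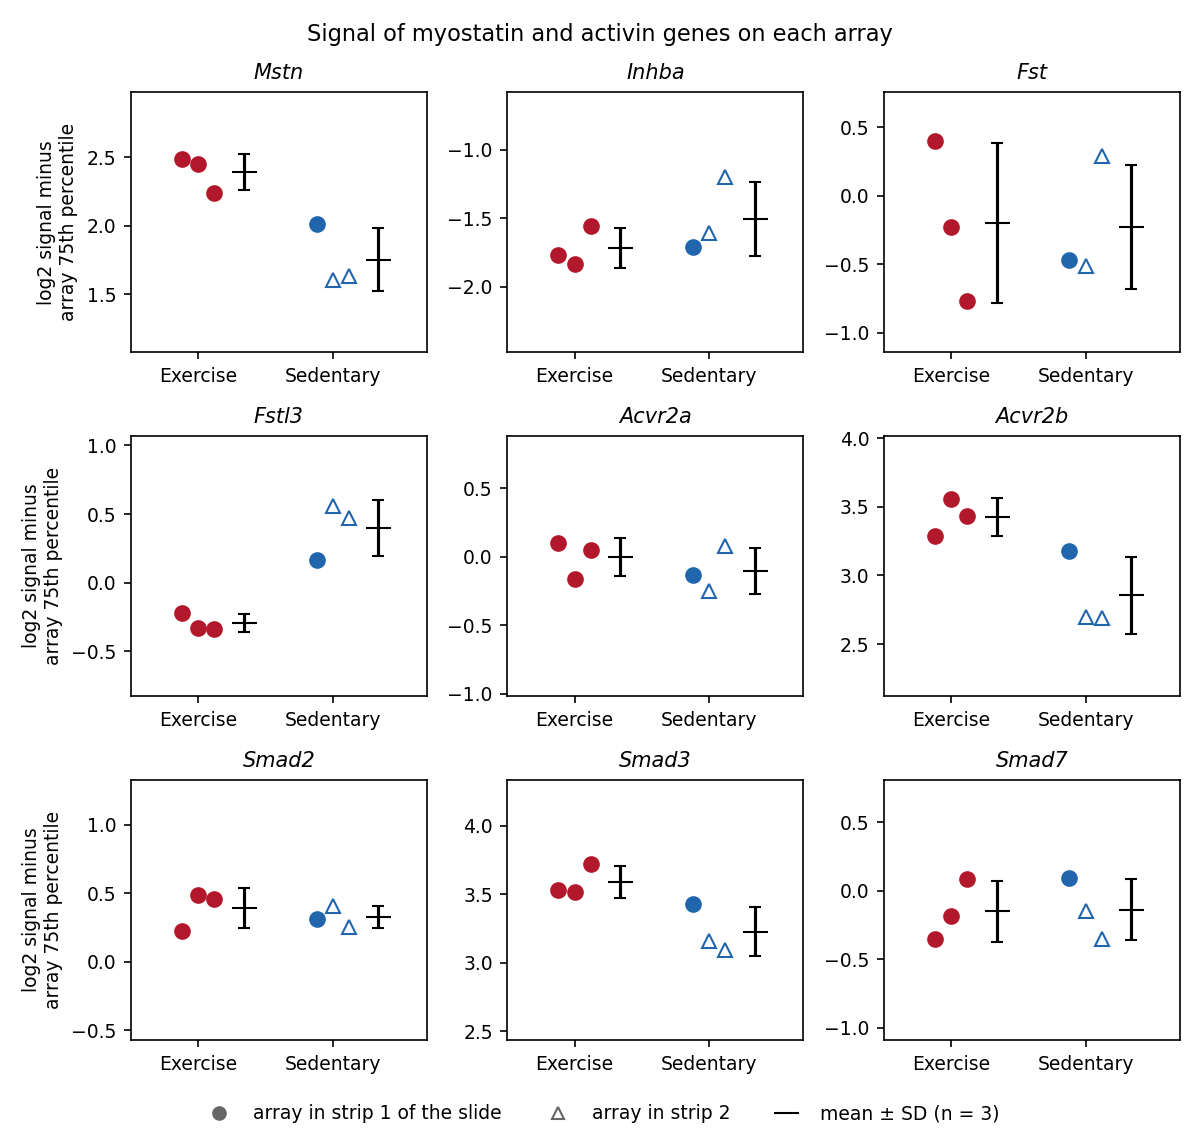
Scaled log2 signal of the 9 tested members on each of the 6 arrays (y axis, log2 of the processed signal minus the 75th percentile of the array), with the groups on the x axis, circles for arrays in strip 1 of the slide, triangles for strip 2, and a bar for the mean ± SD (n = 3). For Mstn, Acvr2b and Smad3 the 3 exercise points lay above the 3 sedentary points, for Fstl3 they lay below, and the groups overlapped for the other 5.

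Mstn encodes myostatin, the muscle-derived ligand that restrains fibre growth. Its scaled log2 signal was 2.49, 2.45 and 2.24 in exercise arrays 1 to 3 and 2.02, 1.60 and 1.64 in sedentary arrays 1 to 3. All 3 exercised mice lay above all 3 sedentary mice, with sedentary array 1 nearest to the exercise arrays. The means were 2.39 ± 0.13 and 1.75 ± 0.23 (SD, n = 3 each), a log2 fold change of 0.64 (SE 0.14, 95% interval 0.29 to 0.99, limma adjusted p = 0.0340) or 1.56-fold. The exact two-sided permutation p was 0.1, the smallest that 3 against 3 can give. Within the strip the difference was 0.38. Before scaling, the processed signal of the Mstn probe was 1442, 1400 and 1184 in exercise and 1255, 1127 and 1192 in sedentary arrays, and there the groups overlapped. On that unscaled basis the log2 fold change was 0.17 (limma adjusted p = 0.294), and with the deposited value table it was 0.48 (limma adjusted p = 0.0620). Relative to the median of all genes it was 0.61 in all 3 cases, which is fixed because these values differ by 1 factor per array. Leaving out 1 array gave 0.57 to 0.77, and the call was lost without any single array other than sedentary 1 (limma adjusted p = 0.0647 to 0.118).

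Gdf11, the ligand closest to myostatin in sequence, could not be tested. On none of the 6 arrays did its 1 probe rise well above background, with processed signals of 7.02 to 13.2, where the dimmest probes well above background gave 11.03 to 13.42. Inhba encodes the activin A subunit. Its arrays gave a scaled log2 signal of -1.76, -1.83 and -1.55 in exercise and -1.71, -1.61 and -1.20 in sedentary arrays. The groups overlapped, and the log2 fold change was -0.21 (SE 0.16, 95% interval -0.60 to 0.18, limma adjusted p = 0.376). Within the strip it was -0.01. On no array did the second Inhba probe rise well above background.

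Fstl3 encodes a follistatin-like protein that binds myostatin and activin outside the cell. Its scaled log2 signal was -0.22, -0.33 and -0.34 in exercise and 0.17, 0.56 and 0.47 in sedentary arrays. The exercise arrays lay close together and below every sedentary array, and sedentary array 1 was again the sedentary array nearest to them. The means were -0.30 ± 0.07 and 0.40 ± 0.21 (SD, n = 3 each), a log2 fold change of -0.70 (SE 0.12, 95% interval -0.997 to -0.40, limma adjusted p = 0.0245). The sedentary level was thus 1.62 times the exercise level, and the exact permutation p was 0.1. Within the strip the difference was -0.46. Fstl3 was lower under every scaling, by 0.85 with the deposited table and 1.17 unscaled on the log2 scale, and it was called in both. Those 2 settings moved the median of all genes down, to -0.13 and -0.45, and called 3201 and 11280 of 25005 lower. Relative to that median Fstl3 was at -0.72 in both, as in the reported fit, because these values differ by 1 factor per array. Leaving out 1 array gave -0.81 to -0.62, a sign that groups without overlap fix in advance. Fstl3 was then called only where the array left out was sedentary 1, with limma adjusted p = 0.0653 to 0.0960 for the others.

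Fst encodes follistatin itself, the better known antagonist. Its scaled log2 signal was 0.40, -0.22 and -0.77 in exercise and -0.47, -0.51 and 0.29 in sedentary arrays. The spread within each group was wide, so the log2 fold change of 0.03 had a 95% interval of -0.82 to 0.88 (SE 0.35, limma adjusted p = 0.958; within the strip 0.27), which leaves room for a change in either direction larger than that of Fstl3. Its sign turned with the deposited table (-0.13), unscaled (-0.44) and without some single arrays. The 2 antagonists therefore differed in their spread between arrays, 1 per mouse, and a difference between their fold changes was not tested.

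The receptors came next in the pathway. Acvr2b encodes ActRIIB, the type II receptor that myostatin prefers. On the exercise arrays its scaled log2 signal was 3.28, 3.56 and 3.43, and on the sedentary arrays 3.18, 2.70 and 2.69. The groups did not overlap, although exercise array 1 and sedentary array 1 were close to each other. The log2 fold change was 0.57 (SE 0.16, 95% interval 0.18 to 0.96), which missed the threshold (limma adjusted p = 0.0585), and within the strip it was 0.25. Its second probe gave 0.54. Acvr2b passed in 5 of 19 alternatives, among them normexp background correction (0.48, limma adjusted p = 0.0202) and the fit without sedentary array 1 (0.73, limma adjusted p = 0.0164).

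Acvr2a encodes the related receptor ActRIIA. Its scaled log2 signal was 0.10, -0.16 and 0.05 in exercise and -0.14, -0.25 and 0.08 in sedentary arrays, and the groups overlapped. The log2 fold change was 0.10 (SE 0.12, 95% interval -0.20 to 0.40, limma adjusted p = 0.589), within the strip 0.13, and its second probe also gave 0.10. Its sign turned unscaled (-0.37) and with the deposited table (-0.057).

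Smad3 and Smad2 carry the signal of the receptors to the nucleus. The scaled log2 signal of Smad3 was 3.53, 3.51 and 3.72 in exercise and 3.43, 3.16 and 3.10 in sedentary arrays. The groups did not overlap, but the gap to sedentary array 1 was small. The log2 fold change was 0.36 (SE 0.12, 95% interval 0.06 to 0.66), short of the threshold (limma adjusted p = 0.0878), and within the strip it was 0.16. The second Smad3 probe gave 0.29. Unscaled, Smad3 was at -0.11 (limma adjusted p = 0.418), and without sedentary array 1 it was at 0.46 and called (limma adjusted p = 0.0377).

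For Smad2 the scaled log2 signal was 0.22, 0.49 and 0.46 in exercise and 0.31, 0.41 and 0.25 in sedentary arrays. The groups overlapped, with a log2 fold change of 0.06 (SE 0.11, 95% interval -0.19 to 0.32, limma adjusted p = 0.692) and 0.08 within the strip. The second Smad2 probe gave -0.02, and the sign also turned unscaled (-0.41) and with the deposited table (-0.093). Smad7, the inhibitory SMAD, stood at -0.35, -0.18 and 0.09 in exercise and at 0.09, -0.15 and -0.35 in sedentary arrays. These values spanned nearly the same range in both groups. The log2 fold change of Smad7 was -0.01 (SE 0.16, 95% interval -0.41 to 0.38, limma adjusted p = 0.965), within the strip -0.24, and the value with the array median subtracted was 0.077. A second, dimmer Smad7 probe, well above background on 5 arrays, gave -0.20.

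**Figure D2:**
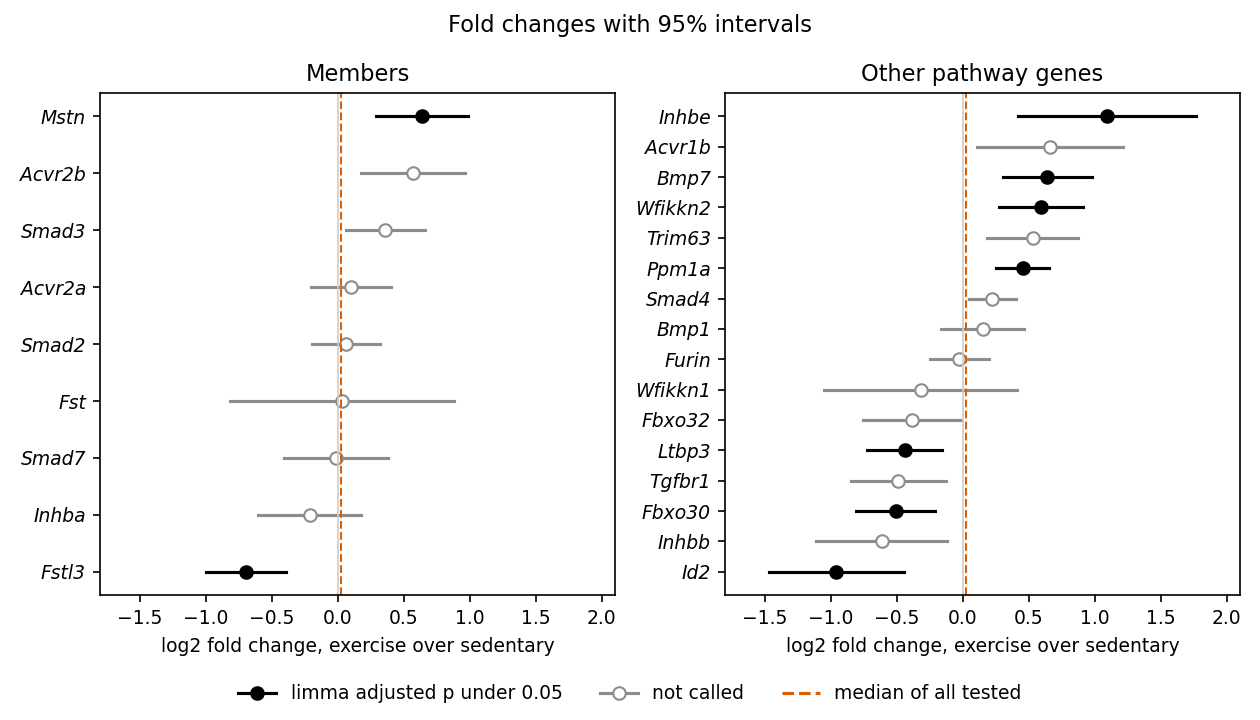
Log2 fold change of exercise over sedentary (x axis) with its 95% interval from limma, for the tested members on the left and the named genes from the rest of the pathway on the right, filled where the adjusted p was under 0.05, with a dashed line at the median of all genes tested (0.03). Mstn (0.64) and Fstl3 (-0.70) were the called members, and the interval of Fst was the widest of the members. Id1 and Id3 are not shown.

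Because scaling shifts every gene of an array alike, pairs of members, and the type I receptors Acvr1b and Tgfbr1, were also compared within each array, where scaling cancels. These 5 pairs were chosen after their values had been seen, so they are a description. Mstn minus Fstl3 was higher in exercise by 1.34 on the log2 scale, a 2.53-fold higher ratio of the 2 signals, and by 0.84 within the strip. The groups did not overlap (exact permutation p = 0.1, the smallest possible). That outcome was fixed in advance, because every exercise array was above every sedentary array for Mstn and below for Fstl3. Mstn minus Inhba was 0.85 higher without overlap, and 0.38 within the strip. A difference within an array does not say which gene of the pair moved.

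Among the pairs of related proteins, only Acvr1b minus Tgfbr1 had no overlap. Acvr2b minus Acvr2a was 0.47 higher in exercise with overlap (exact permutation p = 0.2), and 0.11 within the strip. Smad3 minus Smad2 was 0.30 higher with overlap (exact permutation p = 0.2), and 0.08 within the strip. A difference between ActRIIB and ActRIIA, or between Smad3 and Smad2, was therefore not shown. Acvr1b minus Tgfbr1, the type I receptors ALK4 and ALK5, was 1.15 higher without overlap (exact permutation p = 0.1), and 0.41 within the strip. Here too the lack of overlap was fixed in advance, since every exercise array was above every sedentary array for Acvr1b and below for Tgfbr1.

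**Figure D3:**
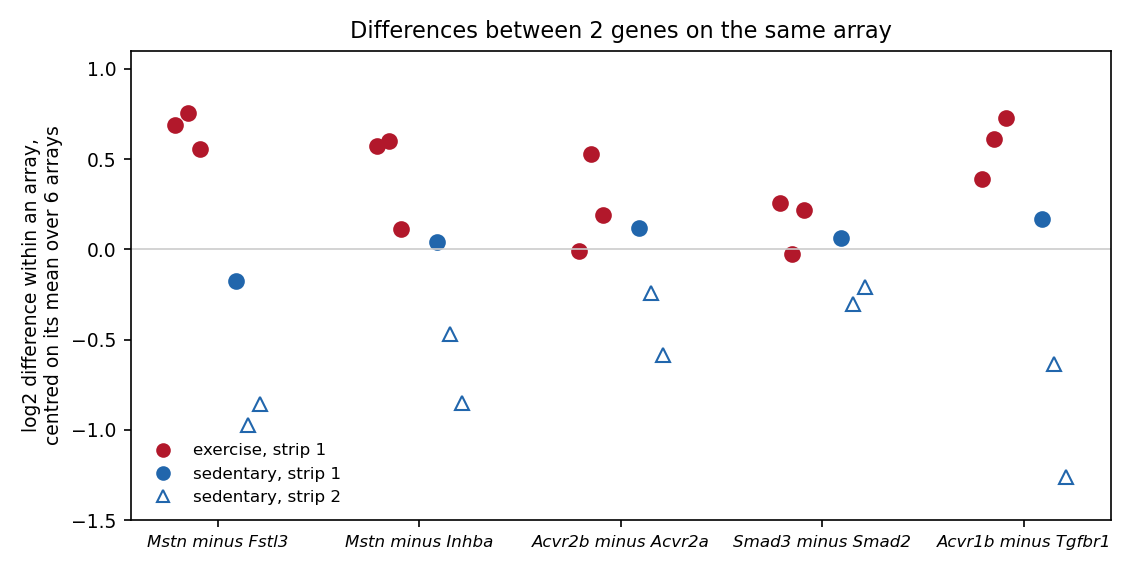
Difference of the log2 signals of 2 genes on the same array (y axis, log2 units), centred on its mean over the 6 arrays, for 5 pairs (x axis), with circles for arrays in strip 1 and triangles for strip 2. Exercise arrays (red) lay above all sedentary arrays (blue) for Mstn minus Fstl3, Mstn minus Inhba and Acvr1b minus Tgfbr1, and overlapped with sedentary array 1 for the other pairs. For Mstn minus Fstl3 and Acvr1b minus Tgfbr1 the levels of the single genes fixed this in advance.

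The rest of the pathway was taken as 5 lists of 76 genes, of which 72 were tested. Of these, 7 were called (9.72%, against 17.6% of all genes), 4 higher, counting the dim Inhbe described below, and 3 lower, and 15 did not overlap between the groups (20.8%, against 43.2%). Their median log2 fold change was 0.01. Both shares were under those of all genes, a difference that was not tested.

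The list nearest the members holds the other ligands, antagonists, processing enzymes, receptors and Smad4. Of its 19 tested genes 2 were higher and 1 was lower, and the median was 0.01. Wfikkn2 encodes GASP-1, a secreted binder of myostatin and Gdf11, and was higher. Its scaled log2 signal was 0.48, 0.53 and 0.69 in exercise and 0.12, 0.06 and -0.26 in sedentary arrays, without overlap (log2 fold change 0.59, SE 0.13, limma adjusted p = 0.0333). Its relative Wfikkn1, well above background on 5 arrays, was at -0.32 with overlap (limma adjusted p = 0.474). Ltbp3, a latent TGF-beta binding protein that also binds the myostatin precursor, was lower by 0.44 on the log2 scale (SE 0.12, limma adjusted p = 0.0496). Inhbe, the activin E subunit known mainly from liver, had a dim probe, well above background on 3 exercise arrays and 1 sedentary array. It thus entered the test through the group in which it was brighter, so its log2 fold change of 1.09 (SE 0.28, limma adjusted p = 0.0454) is given as a description.

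The enzymes that cut the myostatin precursor did not pass. Furin was at -0.03 (limma adjusted p = 0.862) and Bmp1, of the tolloid family, at 0.15 (limma adjusted p = 0.435), both with overlap. Inhbb, the activin B subunit, was at -0.62 (limma adjusted p = 0.0833), with every exercise array below every sedentary array. Among the type I receptors Acvr1b was at 0.66 and Tgfbr1 at -0.49, each without overlap and each short of the threshold (limma adjusted p = 0.0926 and 0.0672). Smad4, the shared partner of Smad2 and Smad3, was at 3.19, 3.17 and 3.20 in exercise and 2.95, 2.97 and 2.96 in sedentary arrays. These values were tight within each group, yet the small difference of 0.22 (SE 0.07) missed the threshold with limma's shared spread (adjusted p = 0.0813), and unscaled it was -0.25.

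Among 14 regulators of receptor-activated SMADs 1 was called. Ppm1a, a phosphatase that removes the activating phosphates of Smad2 and Smad3, was higher by 0.46 on the log2 scale (SE 0.08, limma adjusted p = 0.0251), with 1.17, 1.17 and 1.22 in exercise and 0.78, 0.64 and 0.78 in sedentary arrays. Unscaled, that difference turned to -0.02. The median of this list was 0.04. Of the 11 genes of the TGF-beta arm, with its ligands, latency proteins and receptors, 0 were called by limma and 0 had an unadjusted p under 0.05, and the median was 0.01. Of the 15 tested genes of the BMP arm 1 was called, Bmp7, a ligand that signals through the other branch of SMADs, which was higher (0.64, SE 0.14, limma adjusted p = 0.0328).

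The 13 genes that SMADs are known to control in other settings had a median of -0.16, with 0 called higher and 2 lower. Id2, an inhibitor of basic helix-loop-helix factors and a classic target of BMP signalling, fell by 0.96 on the log2 scale (SE 0.21, limma adjusted p = 0.0331), from 0.54, 1.13 and 1.06 in sedentary arrays to 0.24, -0.06 and -0.32 in exercise arrays. Id1 and Id3, listed as targets of the same branch, were at 0.33 and 0.07 with overlap (limma adjusted p = 0.570 and 0.738). Within the strip they were at 0.41 and 0.20. Fbxo30, which encodes the ubiquitin ligase MUSA1 of denervated muscle, fell by 0.51 (SE 0.12, limma adjusted p = 0.0409). The other atrophy ligases stood on opposite sides of 0. Trim63 (MuRF1) was at 0.53 without overlap (limma adjusted p = 0.0506), and Fbxo32 (atrogin-1) at -0.39 with overlap (limma adjusted p = 0.123). The groups did not overlap for any called pathway gene, so the sign of the difference within the strip was fixed in advance. That difference was 0.45 for Wfikkn2, 1.498 for Inhbe, 0.40 for Ppm1a and 0.58 for Bmp7. It was -0.24 for Ltbp3, -0.59 for Id2 and -0.28 for Fbxo30. For the named genes that were not called it was 0.21 for Wfikkn1, 0.11 for Furin and -0.07 for Bmp1, each opposite in sign to the pooled value. It was -0.28 for Inhbb, 0.20 for Acvr1b, -0.21 for Tgfbr1, 0.24 for Smad4, 0.31 for Trim63 and -0.27 for Fbxo32. Of the 7 called pathway genes, the sign turned under an alternative for Ppm1a alone. Without overlap, leaving out 1 array, the strip block and array weights could not turn it. Inhbe was called in 6 of 18 alternatives and the others in 9 (Ltbp3) to 12 (Id2) of 19. Unscaled, Wfikkn2 (0.12), Bmp7 (0.17) and Inhbe (0.62) were not called (limma adjusted p = 0.439, 0.401 and 0.143). Ltbp3 (-0.91), Id2 (-1.43) and Fbxo30 (-0.98) were then lower than reported. None of the 7 was called by limma when an array other than sedentary 1 was left out. In those fits 11 to 19 of 72 pathway genes had an unadjusted p under 0.05, beside 6680 to 8146 of all 25005 genes.

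Among 15740 other named genes, the 5 whose scaled log2 signal followed that of Mstn most closely over the 6 arrays were Fgf6, Nans, Pacsin1, Idh3g and Gas7. Their Pearson correlations with Mstn were 0.998 to 1.00 (n = 6 arrays, which share their group difference and strip). Fgf6, a fibroblast growth factor of skeletal muscle, had a log2 fold change of 0.84 (limma adjusted p = 0.0336). Idh3g, a subunit of mitochondrial isocitrate dehydrogenase, was at 0.39 (limma adjusted p = 0.0484) and Gas7 at 0.48 (limma adjusted p = 0.0384). Nans and Pacsin1 were at 0.30 and 0.33 and were not called (limma adjusted p = 0.0652 and 0.0617). With this many genes and so few arrays, close matches say little about any one of them.

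Whole muscle holds several cell types, and fewer cells of a type cannot be told apart from less RNA per cell. The muscle identity of the samples was plain, with summed scaled signals of 6 muscle fibre markers of 2314 to 2665 in exercise and 1060 to 1466 in sedentary arrays (linear scale). Of these 6 genes 4 were called higher, Acta1, Ckm, Mb and Mylpf, as were 5 of 6 fast-twitch markers (3841 to 4329 against 1671 to 2790). Slow-twitch markers were mixed, with Myl3 called higher, Tnni1 called lower and 4 of 6 fold changes negative. Their summed signals were nevertheless higher, 320 to 442 in exercise against 219 to 287. Markers of denervated fibres moved the other way, with 6 of 8 called lower and summed signals of 26.4 to 28.7 against 43.3 to 97.2. Mstn thus rose, and Fstl3 fell, in the mice in which fibre genes were higher and denervation genes lower, and the part of fibre content or innervation in either result was not tested.

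Markers of other cell types were taken in the same way. Of 4 tested satellite cell markers 1 was lower (Pax7, with summed signals of 7.27 to 7.73 against 9.19 to 10.8 and Myf5 not tested). By limma, 0 of 6 fibroblast, 0 of 5 endothelial, 0 of 6 macrophage and 0 of 4 tested red blood cell markers were called, none of them at an unadjusted p under 0.05. Their summed signals were 499 to 561 against 460 to 558, 19.6 to 26.0 against 20.8 to 23.6, 41.2 to 49.5 against 42.0 to 47.0, and 251 to 352 against 150 to 320. Of 5 adipocyte markers Lep was called higher (0.35 on the log2 scale), while Adipoq (-0.96), Plin1 (-0.92), Cidec (-0.997) and Cfd (-0.58) had negative values that were not called. The summed signal of the list varied from 128 to 438 in exercise and from 278 to 382 in sedentary arrays. These lists were measured alongside the members, and their part in the results was not tested.

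**Figure D4:**
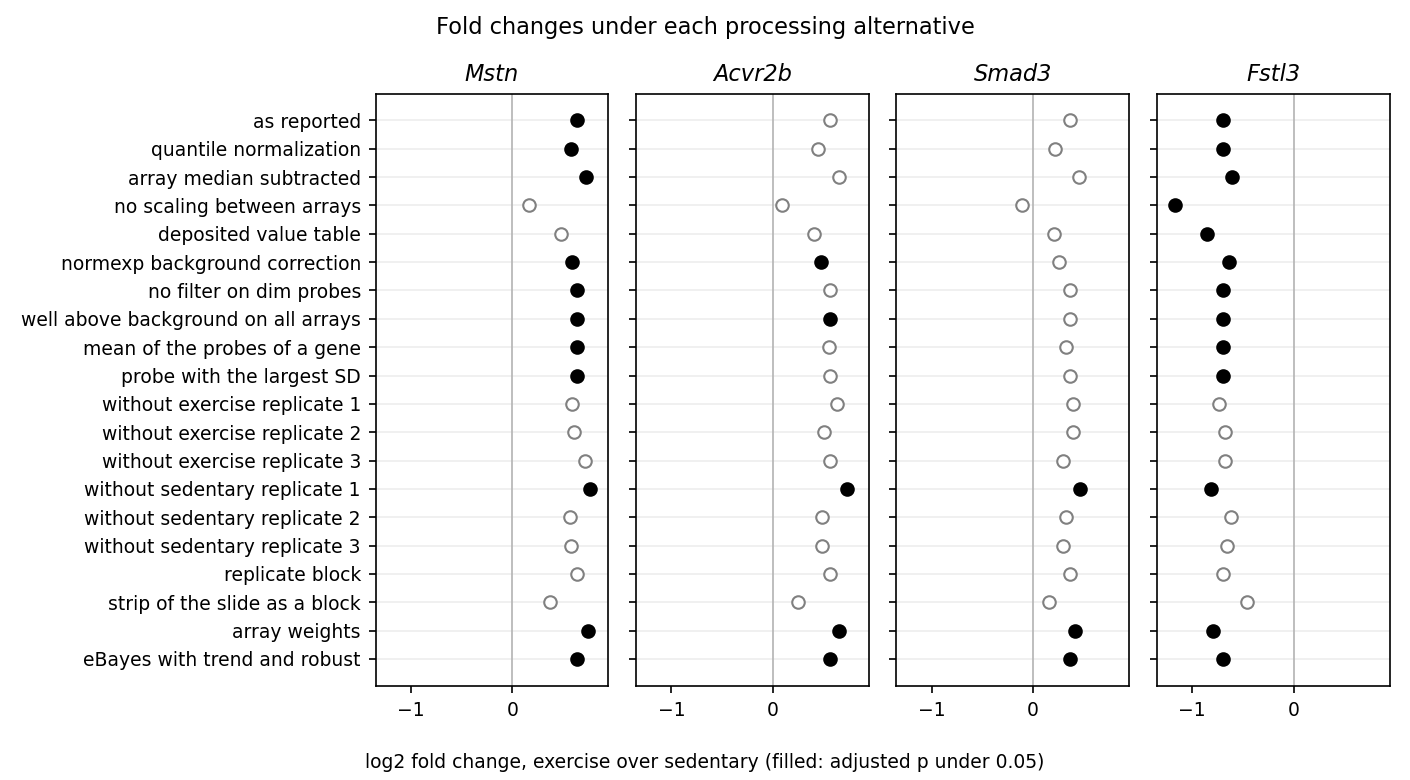
Log2 fold change of exercise over sedentary (x axis) of Mstn, Acvr2b, Smad3 and Fstl3 under each processing alternative (y axis), filled where the adjusted p was under 0.05. Mstn stayed above 0 and Fstl3 below 0 in every alternative, signs that only the scalings, the deposited table and background correction could have turned. Smad3 turned to -0.11 without scaling. Leaving out sedentary replicate 1 was the only removal of an array that kept or gained calls.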

How the data were processed

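Total RNA from the quadriceps of 3 exercise and 3 sedentary AR97Q mice was labelled with 1 dye and hybridized to Agilent mouse arrays, 1 array per mouse, on 1 slide read in 1 scan. The authors deposited the scanner output of Feature Extraction 12.1.0.3, whose processed signal is a background-subtracted intensity for each of 62976 spots, and a table of values that was found to be that intensity multiplied by 1 factor per array (1.33 to 1.88). The number of arrays limits the precision.

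Control spots (3671) and outlier spots (87 to 126 per array) were left out, no spot was saturated, and spots of a probe were averaged. The 75th percentile of each array was subtracted after log2. Of 56605 probes, 22 with a missing value were dropped, and the 32726 probes that Feature Extraction flagged as well above background on 3 or more arrays entered the test. Symbols came from RefSeq or Ensembl identifiers of the GRCm38.p6 table (34561 probes matched, 22044 kept the identifier of the array). Of several probes of a gene, the one with the highest mean was used. Groups were compared in limma 3.58.1 (R 4.3.3; lmFit, eBayes, two-sided) with Benjamini-Hochberg adjustment over all 25005 genes and transcripts, of which 15741 had a symbol. The fit was tested on simulated data. Exact permutation tests used the 6 arrays.

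Members and gene lists were chosen with earlier results of these data known. Named were all members, pathway genes with an adjusted p under 0.05, 10 pathway genes whatever their values, and the 5 genes most correlated with Mstn. Id1 and Id3 were added beside Id2. The alternatives were other scalings, the deposited table, background correction, filters, probe rules, each array left out, blocks for replicate number and strip, array weights, another variance model, the fold change minimum of the study (log2 of 1) and the methods' t-test. The unadjusted limma threshold was added after seeing the data. One further marker list is not reported here.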

Additional observations from a re-analysis of the deposited data

How the results depend on the processing

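Counts here are of genes called higher and lower. As reported, they were 1 and 1 for the members, and 4 and 3 for the other pathway genes. Quantile normalization, averaging the probes of a gene or taking its most variable probe left each of these counts within 1.5 times of the reported one. With the array median subtracted, the pathway count lower was 1. Without scaling, members were 0 and 3 and pathway genes 0 and 36, and with the deposited value table members higher were 0 and pathway genes 1 and 5. Over all genes, 2867 and 1539 became 617 and 11280 unscaled, 1172 and 3201 with the deposited table, 2680 and 872 with the median subtracted and 1865 and 1363 with quantile normalization. Normexp gave 2 members higher and pathway counts of 10 and 6 (6134 and 2021 over all genes). Without the filter on dim probes 7 pathway genes were higher (9737 and 1921 over all genes). With probes well above background on all arrays 2 members were higher (3348 and 1743 over all genes). Array weights gave 3 members higher and pathway counts of 9 and 6 (5117 and 3639 over all genes). The eBayes fit with trend and robust gave 3 members higher and 7 pathway genes higher (3716 and 1995 over all genes). With the log2 minimum of 1, members were 0 and 0, also at an unadjusted p under 0.05, and pathway genes 1 (Inhbe) and 0 (429 and 265 over all genes). The methods' t-test gave 3 and 1 members and 8 and 4 pathway genes unadjusted (5156 and 3193 over all genes). After Benjamini-Hochberg it gave 0 and 0 members and 2 and 0 pathway genes (438 and 206 over all genes). Limma at an unadjusted p under 0.05 gave 3 and 1 members and 9 and 6 pathway genes (5391 and 3860 of 25005 over all genes).

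Leaving out 1 array gave 0 to 3 members higher and 0 to 1 lower, and 0 to 5 pathway genes higher and 0 to 5 lower. The nonzero values came without sedentary array 1 (3468 and 2063 of 25005 over all genes). The zeros by limma came without any other array, with 3 to 4 members at an unadjusted p under 0.05, beside 6680 to 8146 of all 25005 genes. With the strip as a block, 0 and 0 members and 0 and 0 pathway genes were called by limma (1 and 1, and 5 and 5, unadjusted). Over all genes 0 and 3 were called (2971 and 1857 unadjusted). Mstn was at 0.38 and Fstl3 at -0.46 in that fit. Arrays with the same replicate number correlated at 0.02, 0.09 and 0.04 in their deviations from the group means, so the numbers were not taken to pair the mice. With the replicate number as a block, 0 and 0 members and 0 and 0 pathway genes were called by limma (2 and 1, and 8 and 7, unadjusted). Over all genes 0 and 0 were called there (4957 and 3625 unadjusted).

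Mstn was above 0 in 19 of 19 alternatives and called in 10. Fstl3 was below 0 in 19 of 19 and called in 12. Many of these signs were fixed in advance. The groups did not overlap for either gene, so leaving out 1 array, the strip block and array weights could not turn them. The filters, probe rules, replicate block and other variance model returned the reported fold change of both genes. Acvr2b and Inhba kept their sign as well. Signs turned for Smad3 unscaled (-0.11), for Acvr2a unscaled (-0.37) and with the deposited table (-0.057), and for Smad2 in these cases (-0.41, -0.093) and with array weights (-0.0071). Fst turned unscaled (-0.44), with the deposited table (-0.13) and without exercise 1 (-0.27), sedentary 1 (-0.091) or sedentary 2 (-0.11), and leaving out 1 array gave -0.27 to 0.32. Smad7 turned with the median subtracted (0.077) and without exercise 1 (0.089), exercise 2 (0.0051) or sedentary 1 (0.10). The causes were not tested. Dim probes limit Gdf11, Inhbe and Wfikkn1, whose signals lay near background.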
